A study of Pimephales promelas with 20 samples.

Results

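The entries described here were 113 zebrafish piRNA reference sequences that collected reads on the reverse strand in fathead minnow larvae and had no row in the table of forward-strand reads. They were chosen from the measured levels: a mean of 500 or more reads per M of the library's reverse-strand piRNA counts (RPM) over 15 libraries, and a standard deviation (SD) of log2(RPM + 0.5) of 2 or less. They were 24.8% of the 455 reverse-only entries, in a reverse table of 584 entries. In all, 2480 distinct piRNA entries had a row in the forward or the reverse table. Levels, spreads and profile correlations between libraries are therefore descriptions, since they come from the values that chose the entries. The comparison of EE2 with control larvae was not used in the choice. Forward and reverse strand are a reading of the letters F and R of the deposited counts, which no label states.

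piRNAs are small RNAs bound by PIWI proteins, best known as the guides with which germ cells silence transposons. In the zebrafish, piRNAs are made from both strands of transposon sequences, and a piRNA of either strand can guide the cleavage of an RNA of the other strand, whose end becomes a new piRNA. A read on the reverse strand of a reference piRNA has the complementary sequence, which may itself be a piRNA with a reference entry of its own. The fathead minnow is another cyprinid fish, so its reads were assigned to piRNAs named in a different species. No role of a single entry is known from the sources used here, and sequences and genome positions were not used.

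The exposed larvae were kept in water with 10 ng/L of ethinyl estradiol (EE2), the synthetic estrogen of contraceptive pills, for 48 h, starting 48 h after hatching. Control larvae were kept at 0 ng/L over the same period, and both groups were sampled whole at 96 h after hatching. The labels name 10 EE2 and 10 control libraries, and 7 EE2 and 8 control libraries had piRNA columns. The labels do not give the strain, the sex or the number of larvae in a library, and the p-values refer to the variation among libraries, which may be technical. RNA of whole larvae cannot tell a change in the number of cells of a type from a change in RNA per cell.

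Reverse-strand piRNA counts were 71010 to 170677 per library after EE2 and 56993 to 159897 in controls. Forward-strand piRNA counts were 1.02 to 3.08 M per library after EE2 and 1.30 to 3.01 M in controls. The smallest total of any entry in either piRNA table was 73 reads, so an entry without a row may still have had reads below such a minimum. Counts are of reads without molecular identifiers, and intervals from them cover counting error only.

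The 113 entries held most of the reverse-strand reads. Their share of reverse counts was 88.5% ± 1.51 after EE2 (SD, n = 7; lowest 85.9%, median 88.6%, highest 91.1%) and 87.6% ± 2.16 in controls (SD, n = 8; lowest 82.9%, median 88.3%, highest 89.6%). The 2 ranges overlapped over most of their length. Relative to forward counts, they had 49075 ± 10282 counts per M after EE2 and 51251 ± 8777 in controls. Counting a single entry for each group of near-identical profiles, given further on, the share over the 15 libraries was 77.5% in place of 88.0%.

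The level was concentrated in a few of them. Of the summed mean RPM of the 113 entries, the first held 36.3%, the first 2 held 51.8%, the first 5 held 64.2% and the first 10 held 72.3%, and 38 entries made up 90%. A mean of 100000 RPM or more was found for 2 entries, 10000 to under 100000 for 9, 5000 to under 10000 for 15, 1000 to under 5000 for 47 and 500 to under 1000 for 40. The median entry had a mean of 1433 RPM.

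The most abundant was piR-dre-788364. It had 220042 RPM in the lowest, 302750 in the median and 384291 in the highest of the 7 EE2 libraries, and 243213, 314285 and 452631 RPM in the lowest, median and highest of the 8 controls. EE2 replicate 6 and control 4 were the lowest of their groups, and EE2 replicate 5 and control 7 the highest, with the groups overlapping. The second, piR-dre-1242964, had 87900, 150001 and 190651 RPM after EE2 (lowest, median, highest) and 77393, 130778 and 168428 RPM in controls. The next were piR-dre-1075393 and piR-dre-996001, which followed each other: piR-dre-1075393 had 31034, 43356 and 74271 RPM after EE2 and 30311, 37861 and 60661 RPM in controls. For piR-dre-996001 the values were 28888, 40659 and 71398 RPM after EE2 and 28136, 35864 and 57804 RPM in controls. EE2 replicate 6 was the lowest and EE2 replicate 7 the highest exposed library for both, and control 7 and control 9 were the lowest and the highest controls.

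The next in order were far lower. piR-dre-11556 had 16716, 25153 and 32887 RPM after EE2 and 17011, 23688 and 46567 RPM in controls. piR-dre-1289005 had 13887, 18655 and 20560 RPM after EE2 and 12689, 15672 and 19117 RPM in controls. piR-dre-17181 had 9675, 17572 and 21207 RPM after EE2 and 11701, 15704 and 24004 RPM in controls. The groups overlapped for each of these 3 entries. piR-dre-293646, the tenth in order, had 6514, 9774 and 14929 RPM after EE2 and 6779, 9942 and 14493 RPM in controls, which is nearly the same range in both groups. By mean over the 15 libraries, piR-dre-1075393 (42447 RPM) and piR-dre-996001 (40028 RPM) differed by less than the spread of either over libraries. Within libraries their order was fixed, with piR-dre-1075393 the higher in all 15. The means of piR-dre-1289005 (16765 RPM) and piR-dre-17181 (16748 RPM) also differed by less than either spread.

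The spread over libraries was far below the limit of 2 for most entries. Of the 455 reverse-only entries, 116 had a mean of 500 RPM or more, and the limit on the SD left out 3 of these. The SD of log2(RPM + 0.5) ran from 0.17 to 1.90, with a median of 0.43, against a median of 0.87 over all reverse-only entries. It was 0.3 or less for 22 entries, between 0.3 and 0.5 for 42, between 0.5 and 1 for 32 and over 1 for 17. The spread that counting alone gives had a median of 0.13. The observed SD was less than 2 times the counting SD for 14 entries and over 5 times for 40. Within groups the median SD was 0.42 after EE2 and 0.43 in controls, and 60 of 113 entries had the higher SD in EE2 libraries.

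**Figure D1:**
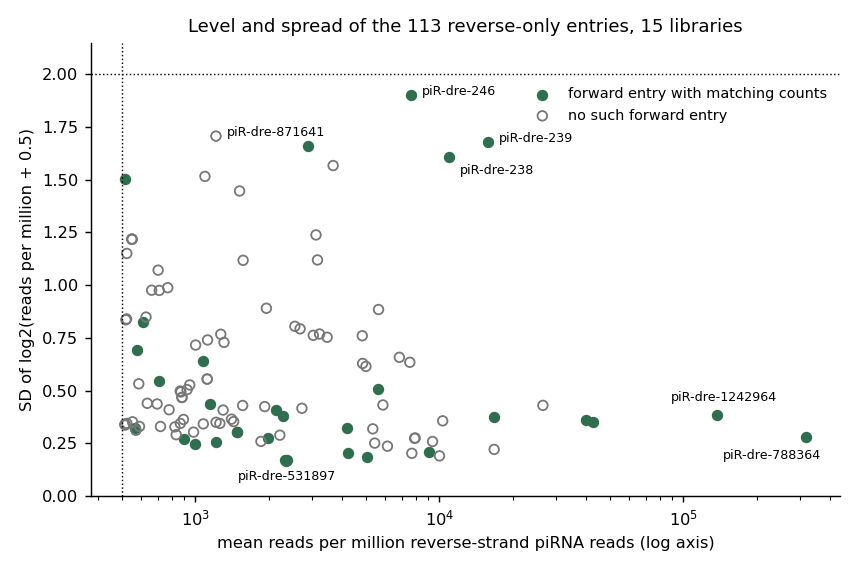
Mean RPM (log axis) against the SD of log2(RPM + 0.5) over 15 libraries for the 113 entries; filled points have a forward entry of matching counts (32), open points do not (81), and dotted lines are the 2 limits of the choice. piR-dre-788364 lies far to the right at a low spread, and piR-dre-239, piR-dre-238 and piR-dre-246 lie near the upper limit.

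The limits fell within a continuous range of levels. The entry just inside the mean limit was piR-dre-60636 at 513.1 RPM, and the one just outside was piR-dre-9450 at 499.5 RPM. Of 116 reverse-only entries with a mean of 500 RPM or more, 3 exceeded the limit on the SD: piR-dre-1296106 (606 RPM, SD 2.16), piR-dre-982366 (618 RPM, SD 2.84) and piR-dre-603835 (811 RPM, SD 3.25). The entry just inside was piR-dre-246, with an SD of 1.90. Without its highest library, the mean of 9 of the 113 entries was under 500 RPM.

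The steadiest 3 entries were piR-dre-32180, piR-dre-319858 and piR-dre-531897, with SDs of 0.17 each and counting SDs of 0.09. piR-dre-531897 had 2161, 2611 and 2830 RPM after EE2 (lowest, median, highest) and 1983, 2247 and 2772 RPM in controls. Its highest library was 1.43 times its lowest. EE2 replicate 6 and control 10 were the lowest of their groups, and EE2 replicate 9 and control 6 the highest. The other two had nearly the same values: piR-dre-32180 ran from 2139 to 2775 RPM after EE2 and from 1953 to 2685 RPM in controls, and piR-dre-319858 from 2109 to 2775 RPM after EE2 and from 1944 to 2720 RPM in controls.

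The largest spreads within the limit came from a few libraries. piR-dre-239 had 2323 RPM in the lowest, 3136 in the median and 111817 in the highest EE2 library, and 3128, 7928 and 44083 RPM in the lowest, median and highest control. The high libraries were EE2 replicate 6, control 4, control 1 with 26217 RPM and control 10 with 11273 RPM, and the next EE2 library, replicate 1, had 4241 RPM. piR-dre-238 had 1617, 2555 and 68839 RPM after EE2 and 2386, 4542 and 34409 RPM in controls, with EE2 replicate 6 and control 4 at the top. piR-dre-246 had 706, 1201 and 51066 RPM after EE2 and 1070, 2782 and 25314 RPM in controls, again with those 2 libraries at the top. Together these 3 entries were 23.2% of the reverse counts of EE2 replicate 6 (95% Wilson interval 22.9 to 23.4%, counting error only). By the same interval they were 10.4% in control 4 (10.2 to 10.6%), 6.07% in control 1 (5.95 to 6.19%) and 2.69% in control 10 (2.59 to 2.79%). The other libraries lay between 0.465% (EE2 replicate 4) and 1.74% (control 2). Without EE2 replicate 6 the mean of piR-dre-239 was 9026 RPM in place of 15878 RPM, and its SD 1.30 in place of 1.68.

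The level of piR-dre-871641 was raised by 1 exposed library. It had 197, 346 and 9603 RPM after EE2 and 74.0, 418 and 2063 RPM in controls. EE2 replicate 8 was the highest of all, at 130 times control 7, followed by control 10 and then by control 4 at 1604 RPM. Without EE2 replicate 8 its mean was 614 RPM in place of 1213 RPM. The 17 entries with an SD over 1 were 13 signals once near-identical profiles were joined, as described next. Of these, 3 were highest in EE2 replicate 6, 1 in EE2 replicate 8, 4 in control 2, 3 in control 3, 1 in control 9 and 1 in control 1.

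Many of the entries had nearly the same profile. Entries were joined in groups where every pair had a Pearson correlation over 0.98 of log2(RPM + 0.5) over the 15 libraries. This left 89 signals: 73 single entries, 11 pairs, 4 groups of 3 and 1 group of 6. Different signals can still be correlated, as given further on, so they are not independent observations either. The 16 groups held 40 entries. In 10 of the 16 the pooled counts of the least abundant entry were within 5% of those of the most abundant. In 12 of the 16 the entries kept the same order of counts, ties allowed, in all 15 libraries. Entries of a group share their profile and are not independent observations. Counts of signals take each group as 1 signal. Counts and percentages of entries, here and below, include every entry of a group, so they are not counts of independent observations. Whether entries of a group share reads was not tested.

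The largest group was a ladder of 6 entries. In each of the 15 libraries the counts ran in the order piR-dre-9512, piR-dre-1710, piR-dre-1711, piR-dre-1712, piR-dre-1713 and piR-dre-58728. The last had 39.6% to 67.3% of the reads of the first (median 53.2%), and the lowest correlation of any pair was 0.98. piR-dre-9512 had 1972, 2790 and 6236 RPM after EE2 (lowest, median, highest) and 935, 3631 and 7449 RPM in controls. Control 1 was the highest library and control 7 the lowest, and both groups covered a wide, overlapping range.

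The group of piR-dre-239, piR-dre-238 and piR-dre-246 kept its order too. The counts of piR-dre-246 were 29.6% to 58.4% of those of piR-dre-239. Other groups had almost equal entries. piR-dre-988461 and piR-dre-914923 had equal counts in 14 of 15 libraries, and piR-dre-1014426, piR-dre-12560 and piR-dre-538412 in 12 of 15. piR-dre-1075393 and piR-dre-996001, next in level after piR-dre-1242964, were close without being equal: the second had 92.6% to 96.1% of the reads of the first. Of the 113 entries, 4 pairs had consecutive identifier numbers (piR-dre-238 and piR-dre-239, and the 3 steps from piR-dre-1710 to piR-dre-1713), and all 4 pairs lay within a group.

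**Figure D2:**
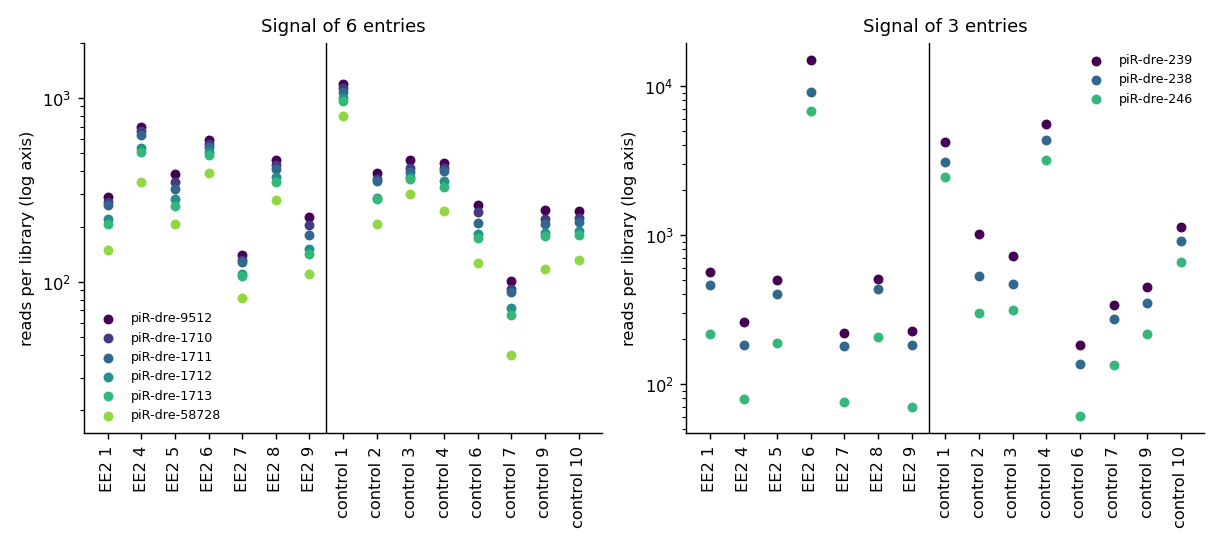
Reads per library (log axis) for the group of 6 entries (left panel) and the group of piR-dre-239, piR-dre-238 and piR-dre-246 (right panel), with EE2 libraries left of the line and controls right of it. The order of the entries is the same in all 15 libraries, and EE2 replicate 6 is the highest library of the right panel.

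The most abundant of these entries had a forward-strand entry with nearly the same counts. For every entry, the forward piRNA entry with the closest counts over the 15 libraries was found, and the pair was called matched where the differences summed to 10% or less of the entry's reads. This tolerance was chosen after the values were seen. A match was found for 32 of the 113 entries (28.3%), or 26 of 89 signals, and it led to 30 distinct forward entries. None of these 30 was a row of the reverse table (0 of 30). Of all 2025 forward entries only 129 were, so 0 of 30 is not read as a trait of the matches. The matched entries held 73.2% of the reads of the 113 and 64.4% of all reverse-strand piRNA reads, and 7 of the 10 most abundant were among them. Their forward counterparts held 3.58% of forward counts.

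The match was exact for 4 entries. piR-dre-771959 and the forward entry piR-dre-777848 had 3882 reads each. piR-dre-431990 and piR-dre-185314 had 1949 reads each, piR-dre-34981 and piR-dre-1730 had 1201 each, and piR-dre-1138815 and piR-dre-1025187 had 1009 each. In each of these 4 pairs the reverse and the forward count were the same number in all 15 libraries. In piR-dre-771959 that number ran from 123 reads (EE2 replicate 7) to 488 reads (EE2 replicate 8).

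The most abundant pair was almost as close. piR-dre-788364 had 550172 reverse reads and piR-dre-769974 had 550206 forward reads, and the difference in any library was at most 7 reads. Summed over libraries, the differences were 0.00618% of the reads. piR-dre-1242964 had 236563 reads against 237144 on the forward entry piR-dre-237041, a summed difference of 0.623%. piR-dre-996001 had 67783 reads against 67681 on piR-dre-137849 (0.212%), and piR-dre-1075393 had 71999 against 70286 on piR-dre-817338 (2.38%). piR-dre-17181 had 29357 reads against 29476 on piR-dre-5991 (0.405%).

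The entries of the piR-dre-239 group, which were highest in EE2 replicate 6, were matched one by one. piR-dre-239 had 30697 reads against 30456 on the forward entry piR-dre-243 (0.785%), piR-dre-238 had 21033 against 20989 on piR-dre-245 (0.209%), and piR-dre-246 had 14934 against 15242 on piR-dre-240 (2.06%). In EE2 replicate 6 itself, piR-dre-239 had 14848 reads, 51 more than its forward counterpart. Other entries highest in that library had no match: piR-dre-30360, piR-dre-730572 and piR-dre-74572, with summed differences of 24.4%, 46.9% and 48.4%. The steadiest entries were matched as well: piR-dre-531897 with piR-dre-299113, and both piR-dre-32180 and piR-dre-319858 with piR-dre-235770, with summed differences of 0.947%, 0.960% and 0.765%.

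**Figure D3:**
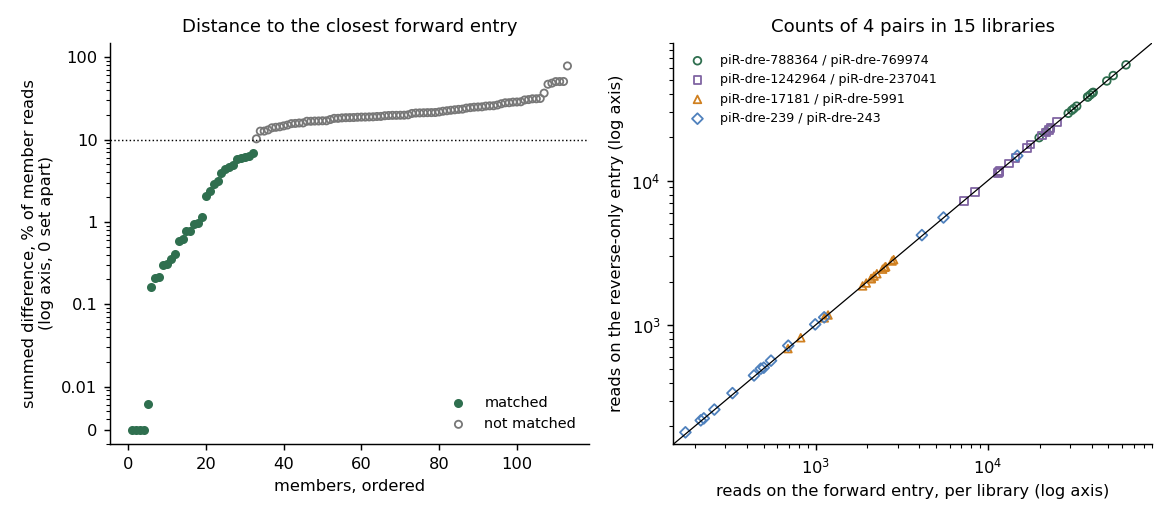
Left, summed difference between each of the 113 entries and its closest forward piRNA entry, as a percent of the entry's reads (log axis, with 0 set apart), in rising order; the dotted line is the 10% tolerance. Right, reads per library on the reverse-only entry against reads on its forward counterpart (both log axes) for 4 pairs in 15 libraries; all points lie on or next to the line of equality.

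The number of matches depended on the tolerance: it was 27 at 5% and 72 at 20%. The summed difference was 1% or less for 18 of the 32, and 6.81% at most. The closest pair outside the tolerance was at 10.2%, and the median of the 81 unmatched entries was 20.7%. Each forward counterpart was picked as the closest of 2025 entries, so closeness in itself was selected. The squared difference was also taken in units of counting error and averaged over libraries. Its median was 0.021 for the 32 matched entries and 7.09 for the 81 unmatched ones. It was under 1 unit for 30 of the 32 and for 0 of the 81. The matches were called on the same differences, so these values are descriptions. Whether the same reads were counted on both strands was not tested, since no sequences were used.

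Matches were also found beyond the 113 entries. Of the 342 other reverse-only entries, 58 (17.0%) had a match by the same tolerance, and of the 129 entries with rows in both tables, 0 had one. The matched entries among the 113 had a median of 2340 RPM and a median SD of 0.36, and the unmatched ones 1214 RPM and 0.49. These are descriptions, since level and spread entered the choice. With the 32 matched entries left out, reverse counts were 2.00% of forward counts, in place of 5.61% with all entries. By group, reverse counts were 5.54% ± 1.10 of forward counts after EE2 and 5.85% ± 0.968 in controls with all entries (SD, n = 7 and 8), and 1.87% ± 0.274 after EE2 and 2.13% ± 0.369 in controls without the matched ones.

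Matches to a miRNA entry were rare. The same comparison with the 528 forward miRNA entries found 2: piR-dre-293646, with 17081 reads against 17628 on novelMiR_10812 (3.20%), and piR-dre-63577, with 10063 reads against 9208 on novelMiR_41777 (8.50%). Of the 10 most abundant entries, piR-dre-11556 and piR-dre-1289005 had neither kind of match.

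The 89 signals did not vary as a single set. Over 3916 pairs of signals the median correlation of log2(RPM + 0.5) over the 15 libraries was 0.03, with 59 pairs over 0.8, 15 pairs over 0.9 and 11 pairs under -0.8. The first principal axis carried 29.8% of their spread. All values in a library share its total, so a high piR-dre-788364 lowers the others.

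Small sets of entries moved together. piR-dre-8797, piR-dre-19415, piR-dre-27308, piR-dre-29844, piR-dre-10207 and piR-dre-16862, which are 4 signals, had correlations over 0.8 in every pair. On average they were 1.55 below their own mean on the log2 scale in EE2 replicate 7, their lowest library, and 1.47 above it in control 9, their highest. piR-dre-63577, piR-dre-694717, piR-dre-1067962 and piR-dre-701907 were highest in control 2, by 2.68, and lowest in control 9, at -1.33. piR-dre-611816 and the group of piR-dre-1014426 were lowest in EE2 replicate 5, at -1.51, and highest in control 9, by 2.58. The sets thus had their extremes in different libraries, and control 9 was the highest of 2 sets and the lowest of another.

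Single libraries stood apart in different numbers of signals. By RPM, EE2 replicate 7 was the lowest library for 21 of 89 signals and EE2 replicate 6 for 11, and control 7 was the lowest for 16. These ranks depend on the scale. Scaled by the forward table, as in the EE2 comparison below, EE2 replicate 7 was the highest EE2 library for piR-dre-788364 and piR-dre-1242964. It was no longer the lowest EE2 library for piR-dre-11556 but stayed so for piR-dre-8797. EE2 replicate 9 was the highest for 12 signals, control 2 for 10, and control 1, control 7 and control 9 for 9 each, and control 10 for 0. EE2 replicate 7 had the smallest reverse total of the EE2 libraries (71010 counts), while control 7 had 108046 and control 6, the smallest of all at 56993, was the lowest library for 6 signals.

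**Figure D4:**
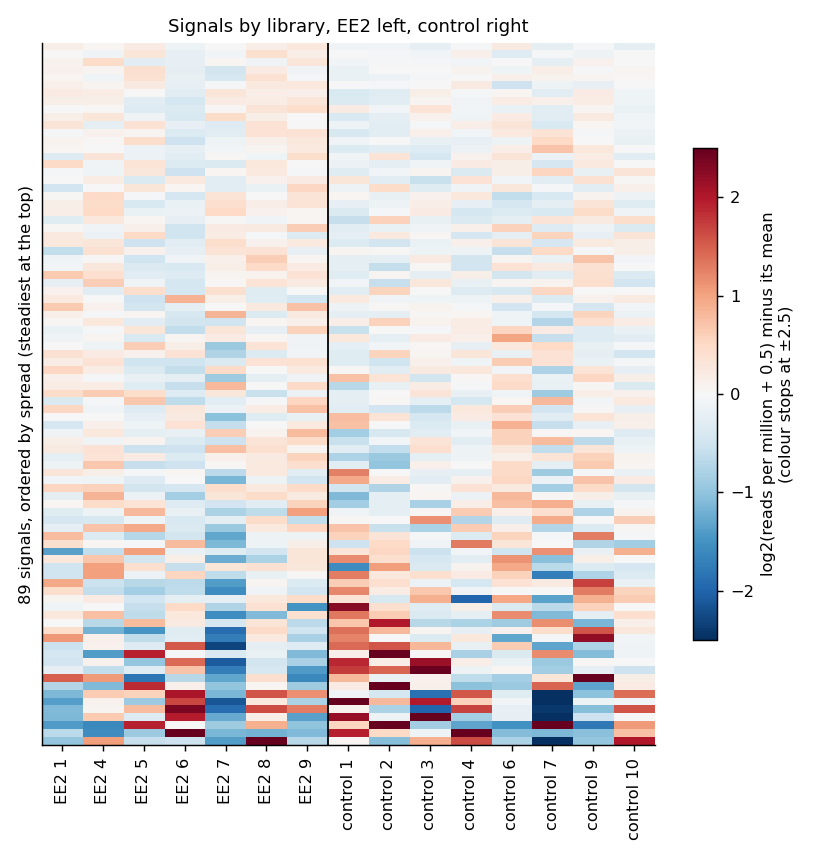
Log2(RPM + 0.5) minus the signal's own mean for the 89 signals (rows, steadiest at the top) in 7 EE2 libraries (left of the line) and 8 controls (right of it); red is above and blue below the mean, and the colour stops at 2.5. The strong colours at the bottom fall in different libraries of both groups.

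The entries whose profile was most like that of piR-dre-788364, by Pearson's r of log2 RPM over 15 libraries, were piR-dre-61105 (0.79), piR-dre-934462 (0.77) and piR-dre-972934 (0.70) in the reverse table. The first 2 belong to the 113 entries. In the forward table they were piR-dre-769974 (0.83), piR-dre-88837 (0.80) and piR-dre-381849 (0.80). piR-dre-769974 is the counterpart whose counts differed by at most 7 reads. Its r is below 1 because reverse RPM and forward RPM are divided by different totals.

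No difference between EE2 and control larvae was detected in any of the 113 entries. All of them were among 432 reverse entries that entered edgeR's quasi-likelihood test, where adjusted p was under 0.05 for 0 of the 113 and for 0% of the 432. DESeq2 and limma voom also called 0 of them. At an unadjusted p under 0.05 there were 5 entries in 4 signals (4.42% of 113), against 3.24% of all entries tested. All 5 were lower after EE2, where the share over all entries was 2.08% lower and 1.16% higher. DESeq2 gave 8 entries at that limit and limma voom 3, all lower. For these and the following settings the share by direction over all entries tested is not given here. The direction depended on scaling and on single libraries: TMM factors of the reverse table gave 6 lower and 3 higher after EE2, and those of the miRNA table gave 4 lower and 1 higher. Without control 9 only 2 were lower and 6 were higher, and without control 7 there were 5 lower and 3 higher. There were 11 lower and 2 higher without EE2 replicate 6, 6 lower and 1 higher without EE2 replicate 5, and 5 lower and 1 higher without control 4. Leaving out any other library gave lower entries and 0 higher: 2 without EE2 replicate 7, 3 without EE2 replicate 4 or EE2 replicate 9, 8 without EE2 replicate 1, and 5 or 6 without each of the rest. Over the whole table the count at that limit moved as well. It was 14 with all libraries, 9 without EE2 replicate 7 and 34 without EE2 replicate 6. The shifts among the 113 are therefore not read as particular to them. The smallest adjusted p of any of the 113 was 0.761 (edgeR, all libraries).

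Their fold changes were centred where those of the whole table were. The median log2 fold change, EE2 over control, was 0.11 for the 113 entries and 0.11 for all 432, scaled by the forward table (totals and TMM factors). It was above 0 for 80 entries and below 0 for 33, and 29.2% of them were lower after EE2 against 37.7% of all entries tested. This split depended on the scaling: without TMM factors the median was -0.08 for the 113 and -0.09 for all 432, with 72 of the 113 lower after EE2. The fold changes ran from -1.19 (piR-dre-1067962) to 1.27 (piR-dre-871641), and the groups overlapped in all 113 entries. The share over all 432 entries is not given here, so this overlap is not read as particular to the 113.

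The intervals give, for each entry and under the main scaling, the changes that were not excluded. They make no allowance for the number of entries or for the choice of scaling. A change of more than 2-fold in either direction was outside the 95% interval for 79 of 113 entries (69.9%), against 180 of 432 (41.7%) in the whole table. A change of more than 1.5-fold was outside it for 13 of 113 entries, with no share over the whole table given here. The biological coefficient of variation had a median of 0.41 in the 113 and 0.48 in the table. The choice of abundant, steady entries favours narrow intervals.

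piR-dre-788364 had 18874 ± 5170 CPM after EE2 and 18255 ± 7655 CPM in controls, on the forward TMM scale (SD, n = 7 and 8). Its log2 fold change was 0.05 ± 0.25 (SE, edgeR adjusted p = 0.929), with a 95% interval of -0.47 to 0.57, and in CPM 5 of 7 EE2 libraries were above the control median. As a share of reverse counts it was 31.4% ± 5.45 after EE2 and 32.4% ± 7.14 in controls. For piR-dre-1242964 the log2 fold change was 0.32 ± 0.25 (adjusted p = 0.770), for piR-dre-1075393 0.34 ± 0.28 (adjusted p = 0.814) and for piR-dre-996001 0.33 ± 0.29 (adjusted p = 0.824). It was 0.33 ± 0.21 for piR-dre-1289005 (adjusted p = 0.761), 0.18 ± 0.25 for piR-dre-293646, 0.06 ± 0.24 for piR-dre-17181 and -0.01 ± 0.18 for piR-dre-11556. None of these 8 differences exceeded 2 of its standard errors. Without EE2 replicate 7 the log2 fold change was 0.14 for piR-dre-1242964, 0.031 for piR-dre-1075393 and 0.015 for piR-dre-996001. Without control 9 it was 0.45, 0.52 and 0.52 for the same entries.

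The smallest p belonged to piR-dre-29844. It had 380, 724 and 1504 RPM after EE2 (lowest, median, highest) and 1056, 1451 and 2711 RPM in controls. Only EE2 replicate 1 was above the control median, and the groups overlapped. On the forward TMM scale it had 49.2 ± 25.5 CPM after EE2 and 90.4 ± 41.8 CPM in controls, a log2 fold change of -0.88 ± 0.31 (edgeR p = 0.0126, adjusted p = 0.761). Without control 9, its highest library, the log2 fold change was -0.65.

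piR-dre-16862 and piR-dre-10207, which are 1 signal and move with piR-dre-29844, were next. piR-dre-16862 had 155, 402 and 750 RPM after EE2 and 477, 699 and 1630 RPM in controls. EE2 replicate 7 was the lowest and control 9 the highest library. The log2 fold change was -1.01 ± 0.40 for piR-dre-16862 (edgeR p = 0.0223, adjusted p = 0.761) and -0.98 ± 0.41 for piR-dre-10207 (edgeR p = 0.0272, adjusted p = 0.761).

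piR-dre-602759 had 113, 281 and 610 RPM after EE2 and 204, 364 and 2053 RPM in controls, with control 3 at the top. Its log2 fold change was -1.11 ± 0.45 (edgeR p = 0.0255, adjusted p = 0.761), and -0.74 without control 3. piR-dre-31286 was the last of the 5 below 0.05, with 394, 797 and 866 RPM after EE2 and 716, 1000.1 and 1695 RPM in controls. All 7 EE2 libraries had a lower RPM than the control median (0 above), and its log2 fold change was -0.50 ± 0.22 (edgeR p = 0.0367, adjusted p = 0.761).

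Upward, the smallest p values were above 0.05. piR-dre-87954 had 389, 581 and 888 RPM after EE2 and 386, 513 and 567.9 RPM in controls, a log2 fold change of 0.45 ± 0.25 (edgeR p = 0.0873). piR-dre-211363 had 3865, 7182 and 7961 RPM after EE2 and 2943, 4650 and 7417 RPM in controls, a log2 fold change of 0.50 ± 0.28 (edgeR p = 0.0890). Both had 5 of 7 EE2 libraries above the control median. For piR-dre-531897 it was 0.32 ± 0.18 (edgeR p = 0.0946), with close values for its 2 companions. The adjusted p was 0.761 for each of these.

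For piR-dre-239, piR-dre-238, piR-dre-246 and piR-dre-871641, all among the most variable entries, the direction of the fold change depended on 1 library. Leave-one-out values are not given here for others with a large spread, such as piR-dre-1067962 (SD 1.66). piR-dre-239 had a log2 fold change of 0.59 ± 0.89 (edgeR adjusted p = 0.869), and -1.78 without EE2 replicate 6. piR-dre-238 had 0.39 ± 0.85, and -1.66 without that library, and piR-dre-246 had 0.33 ± 0.98, and -2.33 without it. Without control 4, the second highest library for all 3, the values were 1.19 for piR-dre-239, 1.05 for piR-dre-238 and 1.03 for piR-dre-246. In each of the 3, the RPM of EE2 replicate 6 alone was above the control median. piR-dre-871641 had 1.27 ± 0.86 (edgeR adjusted p = 0.761), and -0.74 without EE2 replicate 8. piR-dre-9512, the first of the 6-entry ladder, had 0.10 ± 0.27, and piR-dre-60636, the least abundant of the 113, had 0.12 ± 0.27.

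**Figure D5:**
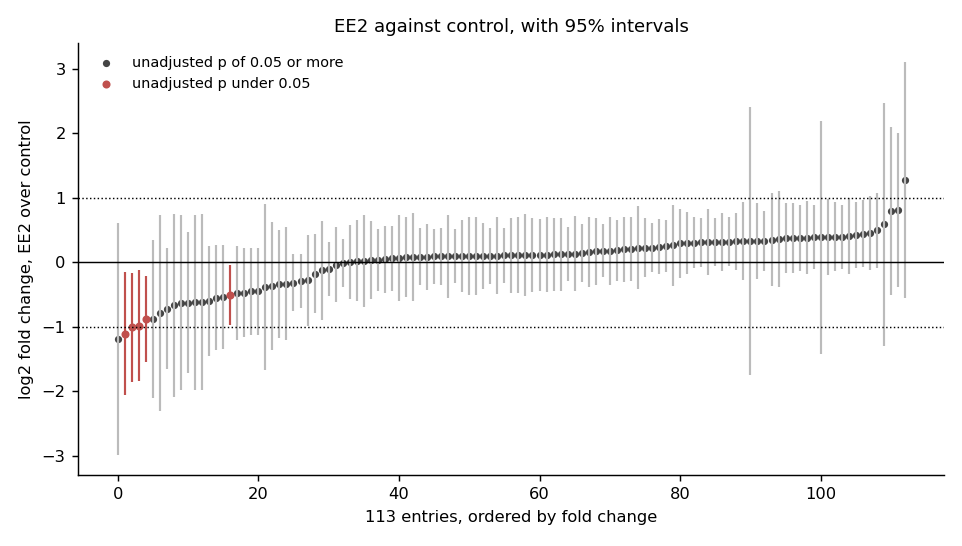
Log2 fold change, EE2 over control, with its 95% interval (edgeR) for the 113 entries in rising order; red marks the 5 entries with an unadjusted p under 0.05, and dotted lines mark a 2-fold change. Of the intervals, 79 lie between the dotted lines, and the widest belongs to piR-dre-246.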

How the data were processed

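Per the labels, total RNA of whole larvae (1000 ng) was made into TruSeq small RNA libraries, and reads were mapped to fathead minnow miRNA and zebrafish piRNA sequences. The submitters' processing notes name Bowtie 1.2.3, bcl2fastq 2.19.1, edgeR 3.26.8 and limma 3.40.6; for settings and reference versions, nothing is given in the sources used here. The authors deposited raw read counts per entry. F and R in the tables were taken as forward and reverse strand, which no label states. Groups come from the labels.

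RPM used each library's reverse piRNA total. EE2 was compared with control with edgeR 4.0.16 (R 4.3.3): totals and TMM factors from the forward piRNA table, filterByExpr (minimum count 10), robust quasi-likelihood F test, two-sided, Benjamini-Hochberg over 432 entries, threshold 0.05; standard errors came from the F statistic. DESeq2 1.42.0, limma 3.58.1 (voom), other scalings and filters, a replicate block and leaving out each library were alternatives. No 2 libraries of a group agreed within sampling noise (smallest chi-square 7.60 per degree of freedom). No member matched the reference gene table (0 of 113), but without sequences or positions this did not examine overlap with genes.

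The members, lists and tests were chosen with earlier results of these data known. Named entries were the 10 most abundant, the 3 with the smallest p in each direction, the 3 steadiest and 3 most variable, the first of the 3 largest groups, those nearest the limits and the 6 most like the most abundant; other entries were named after their values were seen.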

Additional observations from a re-analysis of the deposited data

Results flagged for a closer look

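In 46 groups compared, a library of 1 group lay far from its nearest neighbour relative to the group's range in 6 (Dixon's test at 95%). Chance would give about 1 in 20, or 2.3, for entries not picked by their spread. The 6 fall into 2 signals, so they are not independent. piR-dre-239 and piR-dre-246 were named for a large SD, and piR-dre-531897, piR-dre-32180 and piR-dre-319858 for a small SD. The same values gave those SDs and the flags, so 6 cannot be set against 2.3. On the scale of log2(RPM + 0.5), EE2 replicate 6 was at 16.77 for piR-dre-239, with the next EE2 library at 12.05, at 16.07 for piR-dre-238 (next 11.75) and at 15.64 for piR-dre-246 (next 10.67). Control 6 was at 11.44 for piR-dre-531897 (next control 11.16), at 11.39 for piR-dre-32180 (next 11.13) and at 11.41 for piR-dre-319858 (next 11.13). The cause of these values was not tested.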

How the results depend on the processing

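The number of reverse entries with an adjusted p under 0.05 was 0, and 2 without the filter on low counts, neither of them among the 113; in every setting and leave-one-out 0 of the 113 passed, with a smallest adjusted p of 0.117. At an unadjusted p under 0.05, 14 entries passed, against 23 with TMM factors of the reverse table, 26 without TMM factors, 22 with DESeq2, and 9 to 34 with 1 library left out (fewest without EE2 replicate 7; most without EE2 replicate 6; 29 without EE2 replicate 5, 28 without control 7 and 23 without control 9). Of the 113, 5 passed, against 9 (reverse TMM), 8 (no TMM), 8 (DESeq2), 3 (voom) and 2 to 13 with 1 library left out. The count of 113 became 13 relative to the forward total, 73 with a mean of 1000 or more, 193 with a mean of 250 or more and 110 to 116 with 1 library left out. The limit of 500 was kept for the forward total, and reverse counts were 5.61% of forward counts, so that limit was much stricter. The 89 signals became 85 to 90. The ratio of the members' share, EE2 over control, was 1.01, and 0.958 relative to forward piRNA and 0.959 relative to forward miRNA totals. Alternatives added after seeing the data gave 27 count matches at a tolerance of 5%, 72 at 20% and 32 to 34 with 1 library left out, in place of 32. Of 22 named entries, 13 kept their direction throughout and 9 did not. With reverse TMM factors the log2 fold change was -0.00128 for piR-dre-788364 and -0.031 for piR-dre-9512; without TMM factors it was -0.10 for piR-dre-788364, -0.12 for piR-dre-17181, -0.081 for piR-dre-246, -0.19 for piR-dre-9512 and -0.085 for piR-dre-60636; with miRNA factors -0.10 for piR-dre-9512. DESeq2 gave -1.62, -1.53 and -2.13 and voom -0.55, -0.47 and -0.87 for piR-dre-239, piR-dre-238 and piR-dre-246; DESeq2 gave -0.69 for piR-dre-871641 and voom 0.025 for piR-dre-11556. With 1 library left out the ranges were -0.050 to 0.25 for piR-dre-788364, -0.10 to 0.088 for piR-dre-11556, -0.061 to 0.22 for piR-dre-17181, -1.78 to 1.19 for piR-dre-239, -1.66 to 1.05 for piR-dre-238, -2.33 to 1.03 for piR-dre-246, -0.74 to 1.74 for piR-dre-871641 and -0.051 to 0.23 for piR-dre-9512. The cause of these shifts was not tested. Each level carries counting error: the counting SD had a median of 0.13 over the 113, against a median of 0.43 for the observed SD.

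For the replicate numbers shared by the groups (5 numbers), the correlation of deviations ran from -0.35 to 0.24, over 0.1 in 3 of 5. Of the EE2 libraries, 0 correlated best with the control of their number. So few values cannot decide whether libraries of the same number were paired, and the labels do not state what the numbers mark. With the replicate block, 9 entries and 3 of the 113 had an unadjusted p under 0.05, and the log2 fold change was -0.00442 for piR-dre-788364, -0.64 for piR-dre-239, -0.59 for piR-dre-238 and -1.14 for piR-dre-246. In that fit the EE2 contrast rests on the 5 numbers found in both groups. Libraries whose number occurs in only 1 group add nothing to it, so these values are not from the same libraries as the main fit.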
